A study of Mus musculus with 2 samples.

Results

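The genes described here encode 10 enzymes that supply ATP from creatine phosphate and glucose: Ckm, Ckb, Ckmt2, Eno1, Eno3, Pgam1, Pgam2, Aldoa, Ldha and Ldhb. They were chosen by symbol, were all found, and make up 10 of the 32245 symbols in the count tables (11 of 32285 rows, since 2 gene identifiers carry the symbol Aldoa). Single-cell RNA was sequenced from limb skeletal muscle of wild-type C57Bl/6 mouse embryos of 2 ages, E12.5 and E15.5, and each age is a single library. Forelimb and hindlimb cells were sequenced together, and no treatment or mutant allele is named in the labels. The number of embryos behind each library is not given in the labels. With 1 library per age no difference between ages has a replicate check, so that no p-value is given and every interval (95%, exact) covers counting error only.

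Creatine kinases move phosphate between creatine phosphate and ATP: Ckm is the cytosolic muscle form, Ckb the cytosolic form named for brain, and Ckmt2 the mitochondrial form of heart and skeletal muscle. Enolase and phosphoglycerate mutase are late steps of glycolysis, and each has a widely expressed form (Eno1, Pgam1) and a muscle form (Eno3, Pgam2). Replacement of the widely expressed form by the muscle form during the maturation of muscle fibres is a textbook example of an isoform switch. Aldoa, the aldolase of muscle and of most other embryonic tissues, and Ldha and Ldhb, the lactate dehydrogenase subunits that combine into mixed tetramers, have no separate muscle gene among these 10.

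The regions around the transcription starts (250 bases before to 50 after, from RefSeq, build GRCm38.p6) were set side by side for the genes with a muscle form and their partners, to show whether the 6 letters CAGCTG, a core that muscle regulatory factors such as Myod1 and Myog bind, are present. CAGCTG reads the same on both strands and is in capitals below. It was found in the windows of all 4 muscle-form genes, Ckm (chr7:19410844-19411143, plus strand), Eno3 (chr11:70656926-70657225, plus strand), Pgam2 (chr11:5803747-5804046, minus strand) and Ckmt2 (chr13:91876836-91877135, minus strand), and in 1 of 3 Aldoa windows.
Ckm: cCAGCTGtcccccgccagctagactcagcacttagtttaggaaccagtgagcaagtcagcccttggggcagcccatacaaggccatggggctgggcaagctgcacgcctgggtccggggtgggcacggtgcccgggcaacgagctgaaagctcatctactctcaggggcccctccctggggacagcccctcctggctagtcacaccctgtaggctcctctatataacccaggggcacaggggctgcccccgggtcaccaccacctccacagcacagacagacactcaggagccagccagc
Eno3: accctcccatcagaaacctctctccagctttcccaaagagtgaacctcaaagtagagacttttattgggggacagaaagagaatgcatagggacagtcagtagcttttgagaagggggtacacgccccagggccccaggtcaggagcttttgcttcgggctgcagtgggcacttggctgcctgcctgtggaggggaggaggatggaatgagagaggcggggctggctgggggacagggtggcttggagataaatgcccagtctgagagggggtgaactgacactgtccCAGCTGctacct
Pgam2: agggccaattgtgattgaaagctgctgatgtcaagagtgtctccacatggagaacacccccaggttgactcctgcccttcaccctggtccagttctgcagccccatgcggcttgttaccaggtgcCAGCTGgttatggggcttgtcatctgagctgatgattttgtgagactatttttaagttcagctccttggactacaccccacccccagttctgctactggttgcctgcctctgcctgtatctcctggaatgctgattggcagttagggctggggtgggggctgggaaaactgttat
Ckmt2: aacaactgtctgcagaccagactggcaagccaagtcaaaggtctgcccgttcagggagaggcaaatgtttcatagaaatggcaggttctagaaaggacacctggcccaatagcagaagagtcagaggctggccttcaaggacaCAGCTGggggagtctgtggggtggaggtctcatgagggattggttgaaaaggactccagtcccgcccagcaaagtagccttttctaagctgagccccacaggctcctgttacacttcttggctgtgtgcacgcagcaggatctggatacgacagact
The windows of the partner genes Ckb (chr12:111672289-111672588, minus strand) and Pgam1 (chr19:41911621-41911920, plus strand) and the first of 3 Eno1 windows (chr4:150236458-150236757, plus strand) were without these letters, as were the other Eno1 windows, the 2 Ldha windows and the Ldhb window.
Ckb: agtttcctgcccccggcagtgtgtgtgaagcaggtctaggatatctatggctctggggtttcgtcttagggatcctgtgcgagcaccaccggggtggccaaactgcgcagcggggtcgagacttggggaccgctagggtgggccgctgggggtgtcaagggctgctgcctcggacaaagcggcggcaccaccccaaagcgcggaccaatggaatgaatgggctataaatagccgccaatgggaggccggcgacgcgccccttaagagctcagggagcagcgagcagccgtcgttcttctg
Pgam1: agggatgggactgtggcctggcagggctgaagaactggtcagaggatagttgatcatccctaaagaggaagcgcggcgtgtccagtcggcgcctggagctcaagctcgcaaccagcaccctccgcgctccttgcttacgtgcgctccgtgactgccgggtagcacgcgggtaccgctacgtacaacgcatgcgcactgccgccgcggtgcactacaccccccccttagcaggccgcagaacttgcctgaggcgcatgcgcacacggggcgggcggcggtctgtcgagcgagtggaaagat
Eno1: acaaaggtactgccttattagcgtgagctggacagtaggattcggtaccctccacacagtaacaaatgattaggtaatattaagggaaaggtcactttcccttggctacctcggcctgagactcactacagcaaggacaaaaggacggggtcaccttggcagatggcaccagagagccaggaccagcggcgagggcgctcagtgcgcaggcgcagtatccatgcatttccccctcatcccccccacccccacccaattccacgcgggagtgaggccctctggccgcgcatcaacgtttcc
Of all 32851 windows in the RefSeq table, 16.3% hold CAGCTG, and of the 27025 symbols 18.3% have it in at least 1 window. The MEF2 consensus, searched on both strands, matched in the Pgam2 and Ckb windows and in 3.19% of all windows. These matches are descriptions of the letters, and binding was not measured here.

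Barcodes (droplets that stand for cells) were assigned by 6 muscle regulator genes, Pax7, Myf5, Myod1, Myog, Mymk and Mymx. A UMI (unique molecular identifier) marks 1 captured RNA molecule, and the level of a gene is given as counts per 1000000 UMIs of the summed barcodes (CPM). The kit reads the 3' end of each molecule, so that UMI counts do not scale with gene length. Pax7-positive barcodes, which mark muscle progenitors, had a Pax7 UMI, no Myog UMI and at least 2 UMIs over the 6 genes. They numbered 108 at E12.5 against 181 at E15.5. Myog-positive barcodes, which mark differentiating muscle cells, had a Myog UMI and at least 2 UMIs over the 6 genes, and numbered 246 and 184. Non-muscle barcodes had no UMI of the 6 genes and numbered 10269 and 3240. The remaining 378 and 311 barcodes entered none of these groups. Although the tissue is labelled as muscle, muscle-lineage-like clusters held 610 of 11001 and 387 of 3916 kept barcodes, and connective tissue-like clusters 8021 and 2039. Clustering placed 106 of 108 and 175 of 181 Pax7-positive barcodes, and 243 of 246 and 154 of 184 Myog-positive barcodes, in muscle-lineage-like clusters. It also placed 119 and 15 of the non-muscle barcodes there. The E15.5 library was deeper per barcode: the medians were 3991.5 and 13687.5 UMIs in Myog-positive barcodes, and 2272 and 8883.5 in non-muscle barcodes. The libraries shared 17 barcode sequences, and 10 of these were among the kept barcodes.

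Ckm, the muscle creatine kinase, was near the limit of detection in the younger library and close to its partner Ckb in the older one. In Myog-positive barcodes Ckm had 4 UMIs at E12.5 (3.52 CPM, interval 0.96 to 9.02) and 173 at E15.5 (63.0 CPM, 54.0 to 73.1). Ckb, counted in the same barcodes, had 330 UMIs (291 CPM, 260 to 324) and 242 UMIs (88.2 CPM, 77.4 to 99.998). Ckm therefore made up 1.198% of the UMIs of the pair at E12.5 (0.33 to 3.04) and 41.7% at E15.5 (36.9 to 46.6). In Pax7-positive barcodes Ckm had no UMI beside 26 of Ckb at E12.5, which allows up to 6.21 CPM at a limit of 3 counts, and 3 UMIs beside 99 of Ckb at E15.5 (2.94%, 0.61 to 8.36). In non-muscle barcodes its share was 0.29% (1 of 349 UMIs) and 1.07% (19 of 1780). The plot of isoform shares by barcode group shows Ckm high in 1 of the 6 combinations of age and group.

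**Figure D1:**
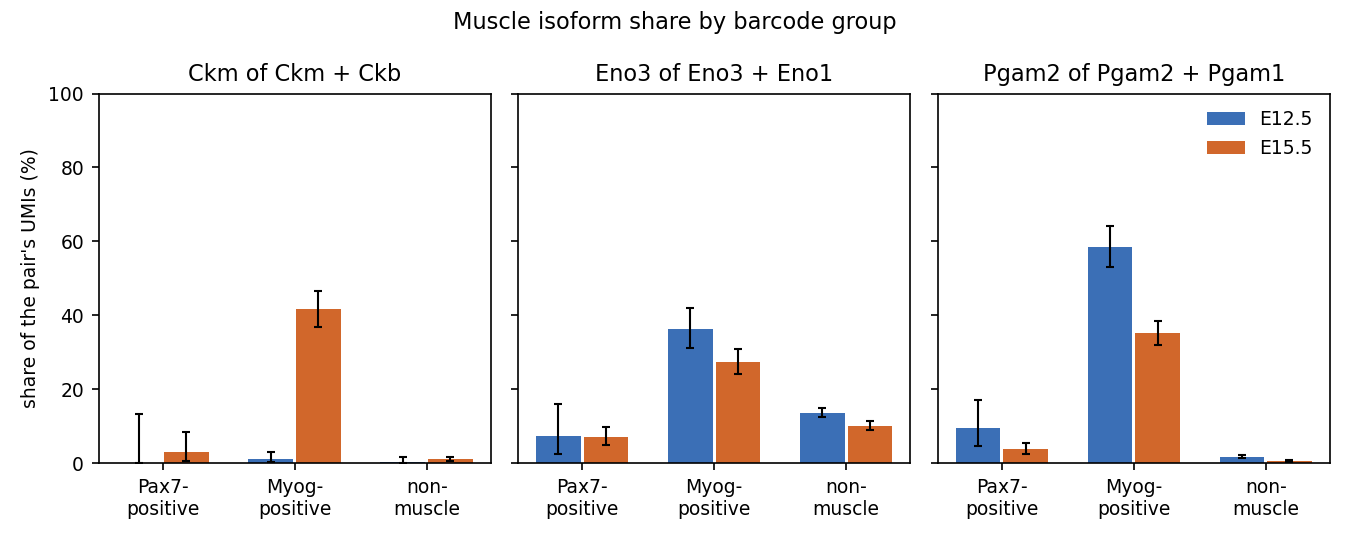
Share of the pair's UMIs (percent) held by Ckm, Eno3 and Pgam2 in Pax7-positive, Myog-positive and non-muscle barcodes at E12.5 (blue) and E15.5 (orange), 1 library per age. Bars are summed UMIs and error bars exact 95% intervals for counting error. Ckm stands at 41.7% in Myog-positive barcodes at E15.5 and at or under 2.94% elsewhere, while Eno3 and Pgam2 are high in Myog-positive barcodes at both ages.

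A small number of barcodes carried the E15.5 Ckm signal. UMIs of Ckm were found in 18 of 184 Myog-positive barcodes, all 18 in the range of high sarcomere gene content defined below, and 1 barcode of 77143 UMIs held 80 of the 173. In that barcode 10.9% of UMIs came from 20 sarcomere genes, and it held 33 UMIs of Eno3, 40 of Pgam2 and 6 of Ckb. Without it the Ckm share was 28.3%. After thinning of each barcode to 2000 UMIs, 8 of 171 Myog-positive barcodes (4.68%) had Ckm, against 1 of 233 (0.43%) at E12.5. Endothelial-like cells, which should lack Ckm, had it at E15.5 in 1 of 153 barcodes at a median of 10777 UMIs, and in 0 of 133 after thinning, which allows a share of up to 2.26%. At E12.5 they had it in 1 of 131 barcodes (1.61 CPM, 0.041 to 8.95) at a median of 3913 UMIs. Connective tissue-like cells at that age had 0 Ckm UMIs, with an upper limit of 0.188 CPM, and the interval of Ckm in Myog-positive barcodes overlapped with that of endothelial-like cells and not with that of connective tissue-like cells.

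The removal of doublets (droplets scored as holding more than 1 cell) took out further Ckm-rich barcodes. At E15.5, 16 Myog-positive barcodes were removed, and 10 of them held 164 Ckm UMIs (446 CPM). Their median mitochondrial share was 2.35%, against 4.39% in the kept ones, and their connective tissue markers stood at 5483 CPM against 1247 CPM. With no doublets removed, the Ckm share in Myog-positive barcodes at E15.5 was 54.2%, and it was 47.9% when the barcode of most Ckm UMIs was also left out. At E12.5, 37 Myog-positive barcodes were removed, and 1 Ckm UMI was found in them. Over all alternatives the E15.5 share ran from 28.3% to 54.2%, and the E12.5 share from 0.83% to 1.30%. The plot of Ckm UMIs per barcode shows where the kept and removed barcodes lie.

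**Figure D2:**
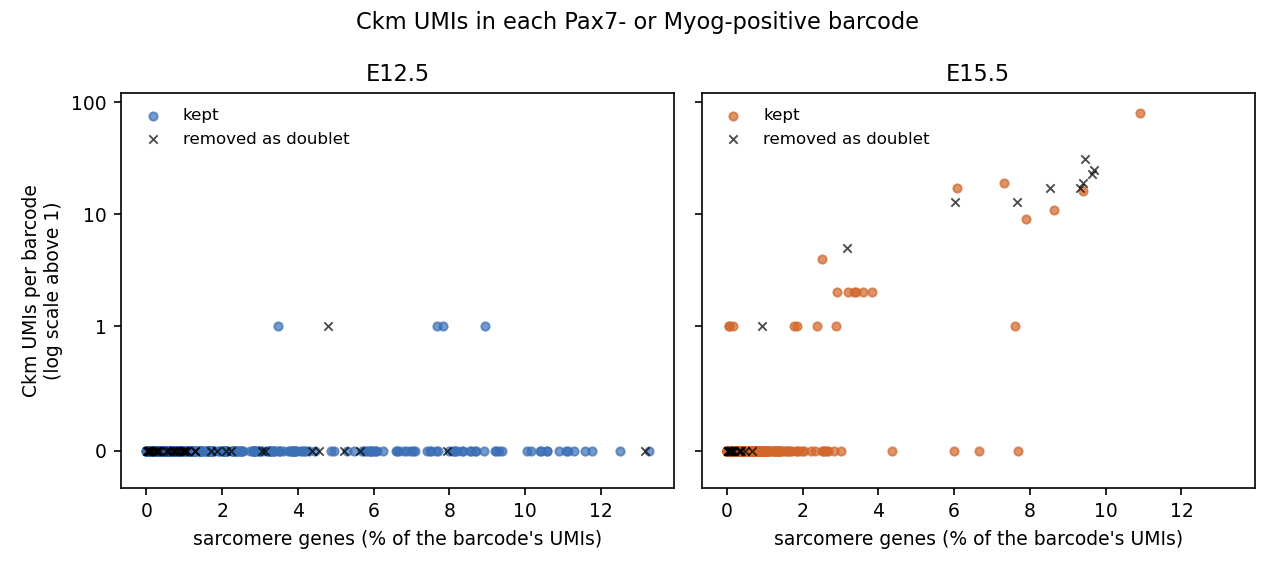
Ckm UMIs (log scale above 1) against the share of UMIs from 20 sarcomere genes (percent) in each Pax7-positive or Myog-positive barcode, at E12.5 (left) and E15.5 (right). Circles are kept barcodes and crosses are barcodes removed as doublets. At E12.5 no barcode has more than 1 Ckm UMI at any sarcomere share, and at E15.5 the highest has 80.

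Eno3 and Pgam2, in contrast to Ckm, were already high in Myog-positive barcodes at E12.5. Eno3 had 114 UMIs (100.4 CPM, 82.8 to 121) beside 199 of Eno1, a share of 36.4% (31.1 to 42.0). Pgam2 had 184 UMIs (162 CPM, 139 to 187) beside 130 of Pgam1, a share of 58.6% (52.9 to 64.1), so that the muscle form was the more abundant of this pair. In Pax7-positive barcodes of the same library the shares were 7.25% for Eno3 (5 of 69 UMIs) and 9.62% for Pgam2 (10 of 104 UMIs).

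At E15.5 the shares in Myog-positive barcodes were lower: 27.4% for Eno3 (198 of 723 UMIs, 24.2 to 30.8) and 35.1% for Pgam2 (284 of 808 UMIs, 31.9 to 38.6). In Pax7-positive barcodes they were 7.11% for Eno3 (36 of 506) and 3.76% for Pgam2 (26 of 692). The 10 Myog-positive barcodes richest in each gene held 142 of the 198 Eno3 UMIs and 179 of the 284 Pgam2 UMIs at E15.5. At E12.5 they held 48 of 114 and 58 of 184. The lower Eno3 share was not stable: with no doublets removed it was 34.9% at E12.5 against 35.1% at E15.5. The Pgam2 share was lower at E15.5 under each of the 10 alternatives, by 10.1 to 26.6 percentage points. Myog-positive barcodes at the ages also differed in maturity: the median share of UMIs from the 20 sarcomere genes was 2.11% at E12.5 against 0.68% at E15.5, and the number that also held a Pax7 UMI was 19 of 246 and 51 of 184. Connective tissue markers, with all 10 detected at both ages, summed to 568 and 1247 CPM. The part of these markers in the shares was not tested.

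To compare like with like, the Pax7-positive and Myog-positive barcodes were divided by their sarcomere gene content at the tertiles of both libraries together, 0.158% and 1.02%. These ranges cut a continuous score, and 25 barcodes at E12.5 against 23 at E15.5 lay within 0.25 on the log2 scale of the upper limit. In the high range (176 barcodes at E12.5, 64 at E15.5, all Myog-positive) the Eno3 share was 43.3% at both ages, with intervals of 37.0 to 49.7 and 38.4 to 48.4. The Pgam2 share was 66.8% (60.7 to 72.5) and 63.6% (58.8 to 68.3). The Ckm share was 1.40% (4 of 285 UMIs) and 51.8% (173 of 334, 46.3 to 57.3). Eno3 and Pgam2 shares at the 2 ages thus lay within each other's intervals in this range, and the Ckm shares did not. For Eno3 this did not hold with no doublets removed, where the shares were 42.8% (36.8 to 49.0) and 51.7% (47.6 to 55.9). The sarcomere content within the high range still differed, with medians of 3.27% at E12.5 against 1.88% at E15.5.

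The lower ranges held little of any muscle form. In the middle range the Eno3 share was 9.35% at E12.5 against 9.17% at E15.5, the Pgam2 share 13.5% and 5.69%, and Ckm had 0 of 55 and 1 of 99 UMIs. In the low range Pgam2 had 10.4% (7 of 67 UMIs) and 2.95% (19 of 643), and Eno3 10.0% (3 of 30) and 6.21% (30 of 483). The few barcodes with at least 5% sarcomere UMIs, 60 at E12.5 against 10 at E15.5, had Eno3 shares of 62.8% and 55.6%, Pgam2 shares of 78.5% and 82.7%, and Ckm shares of 2.36% (3 of 127 UMIs) and 78.9% (153 of 194). Of the 10 at E15.5, 1 barcode held 80 of the 153 Ckm UMIs, and another of 56686 UMIs held 1 beside 22 of Ckb. High expression of contractile genes thus came with high summed Eno3 and Pgam2 shares in both libraries. The summed Ckm share was high in the older one, though not in every barcode.

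**Figure D3:**
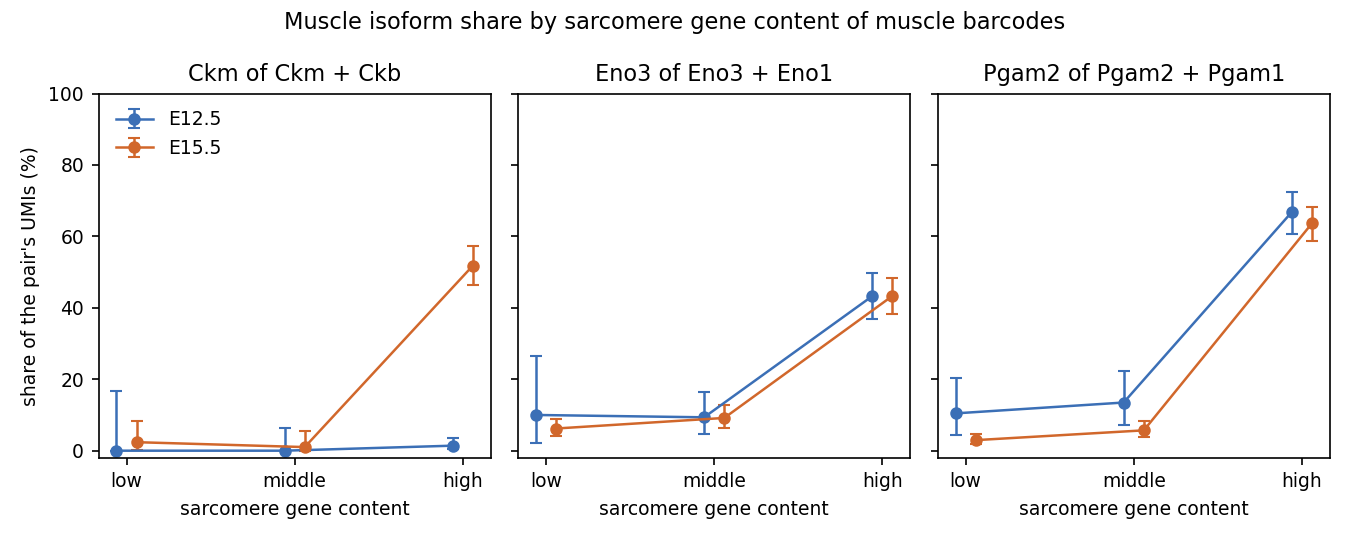
Share of the pair's UMIs (percent) held by Ckm, Eno3 and Pgam2 in Pax7-positive and Myog-positive barcodes of low, middle and high sarcomere gene content, at E12.5 (blue) and E15.5 (orange). Points are summed UMIs with exact 95% intervals for counting error, and lines join the ranges of 1 library. In the high range the ages lie together for Eno3 (43.3% at both) and Pgam2 (66.8% and 63.6%) and apart for Ckm (1.40% and 51.8%).

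The same comparison was repeated with other choices of barcodes in the high range. With no doublets removed, the shares at E12.5 and E15.5 were 1.61% and 63.9% for Ckm, and 65.3% and 66.8% for Pgam2. Without the barcode of most Ckm UMIs the E15.5 shares were 37.5% for Ckm, 42.6% for Eno3 and 60.8% for Pgam2. Markers of connective tissue and endothelium were lower in the high range than in non-muscle barcodes. The non-muscle sums at E12.5 and E15.5 were 4178 and 11562 CPM for connective tissue markers, and 142 and 337 CPM for endothelial markers. In the high range connective tissue markers summed to 559 and 647 CPM, with medians of 1 and 3 UMIs per barcode. Endothelial markers there summed to 6.35 CPM (2 of 7 detected, with Cdh5, Kdr, Cldn5, Emcn and Egfl7 at 0) and 47.2 CPM (6 of 7 detected, with Kdr at 0).

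The Ckb level was lower at E15.5 than at E12.5 in each of the 3 sarcomere ranges, so that both sides of the creatine kinase pair differed between the ages. Its level was 78.6 CPM (48.0 to 121) and 30.05 CPM (23.9 to 37.3) in the low range, 95.3 (71.8 to 124) and 51.3 CPM (41.6 to 62.5) in the middle range, and 357 (317 to 401) and 165 CPM (141 to 193) in the high range. The intervals did not overlap in any of the 3. Ckb was highest in the high range at both ages, and the Ckm level there was 5.08 CPM (1.39 to 13.0) and 177 CPM (152 to 206). Eno1 in the high range stood at 177 CPM (149 to 209) and 231 CPM (202 to 263), and Pgam1 at 111 CPM (88.6 to 136) and 156 CPM (132 to 183).

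Clusters gave the same order without use of the regulator genes as a gate. They were built from all variable genes, so the members may have taken part in them and the values are a description. At E12.5 the Pgam2 share was 17.1% in cluster 12 (425 barcodes, led by Msc and Pax7), 48.0% in cluster 18 (121 barcodes, led by Myog and Mymx) and 76.3% in cluster 19 (64 barcodes, led by Myh3 and Mylpf). The Eno3 share in these clusters was 9.65%, 21.2% and 60.4%. Ckm had 0, 1 and 3 UMIs in them, beside 142, 155 and 129 of Ckb. At E15.5 the clusters 8 and 9 (157 and 152 barcodes, both with Pax7 and Msc among the leading genes) had Pgam2 shares of 2.42% and 4.78% and Eno3 shares of 5.84% and 7.68%. Cluster 16 (78 barcodes, led by Mylpf and Myl1) had 61.0% for Pgam2, 41.0% for Eno3 and 50.7% for Ckm, and held 173 of the 176 Ckm UMIs of the muscle-lineage-like clusters. The step from the Myog-led to the Myh3-led cluster at E12.5 thus showed larger Eno3 and Pgam2 shares, with Ckb at 350 and 368 CPM.

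The 10 genes were next compared as levels between the groups of 1 library. In Myog-positive over Pax7-positive barcodes at E12.5, 3 of the 8 genes with at least 20 UMIs were at least 2-fold higher and 0 were lower, where 10.7% of 7912 genes were higher and 8.91% lower. The 3 were Ckb (54 to 291 CPM, log2 2.43, interval 1.85 to 3.07), Eno3 (10.4 to 100.4 CPM, log2 3.28, 2.01 to 4.93) and Pgam2 (20.7 to 162 CPM, log2 2.97, 2.06 to 4.05). Pgam1, the partner of Pgam2, was at 195 and 114 CPM (log2 -0.77, -1.16 to -0.37). At E15.5, 4 of 9 were at least 2-fold higher and 0 lower, where 7.77% of 10208 genes were higher and 7.34% lower. Ckm joined the 3 with 3 and 173 UMIs (log2 5.91, 4.34 to 8.21), beside Pgam2 at log2 3.51 (2.93 to 4.15), Eno3 at 2.52 (2.01 to 3.08) and Ckb at 1.35 (1.01 to 1.71). Ldha stood at 437 and 447 CPM at E12.5 and at 493 and 493 CPM at E15.5. The median over all genes was -0.13 on the log2 scale in both libraries.

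Between ages most members differed by less than 2-fold in the muscle groups. In Myog-positive barcodes 1 of 9 was at least 2-fold higher at E15.5 and 1 lower, where 6.09% of 9674 genes were higher and 17.9% lower. Ckm was the higher one (log2 4.16, 2.78 to 6.05) and Ckb the lower one (log2 -1.72, -1.97 to -1.48). Pgam1 went from 114 to 191 CPM (log2 0.74, 0.46 to 1.03, and past 2-fold at 1.03 with TMM scaling), and Pgam2 from 162 to 103 CPM (log2 -0.65, -0.92 to -0.37). Eno3 at 100.4 and 72.1 CPM had a log2 ratio of -0.48 (-0.82 to -0.13), which was 0.24 with no doublets removed and above 0 in 3 of the 12 alternatives. In the high sarcomere range both levels ran the other way, from 222 to 273 CPM for Pgam2 and from 135 to 176 CPM for Eno3. The intervals of the ages overlapped for both genes there. Without the barcode of most Ckm UMIs the E15.5 levels in that range were 252 CPM for Pgam2 and 155 CPM for Eno3. Eno1, Aldoa and Ldha had ratios of 0.13, 0.21 and 0.14. Ldhb went from 37.9 to 20.8 CPM (log2 -0.87, -1.46 to -0.26).

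In Pax7-positive barcodes 1 of 8 members, Pgam2, differed at least 2-fold between ages in either direction, where 23.2% of 9122 genes did. Pgam2 went from 20.7 to 9.06 CPM (10 and 26 UMIs, log2 -1.19, -2.29 to 0.02), and its ratio was 0.24 after thinning to 2000 UMIs and, under 2-fold, -0.92 with TMM scaling. Ckb and Ldhb were each at 53.9 CPM at E12.5 and at 34.5 and 30.3 CPM at E15.5. The other 5 members with at least 20 UMIs had log2 ratios between 0.17 and 0.37. The median over all genes was -0.25 in this group and -0.29 in the other groups. Another scaling of the libraries moved the ratios up by 0.27 to 0.30 in each group. The plot of levels by group shows the distance between ages for each gene, including non-muscle barcodes.

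**Figure D4:**
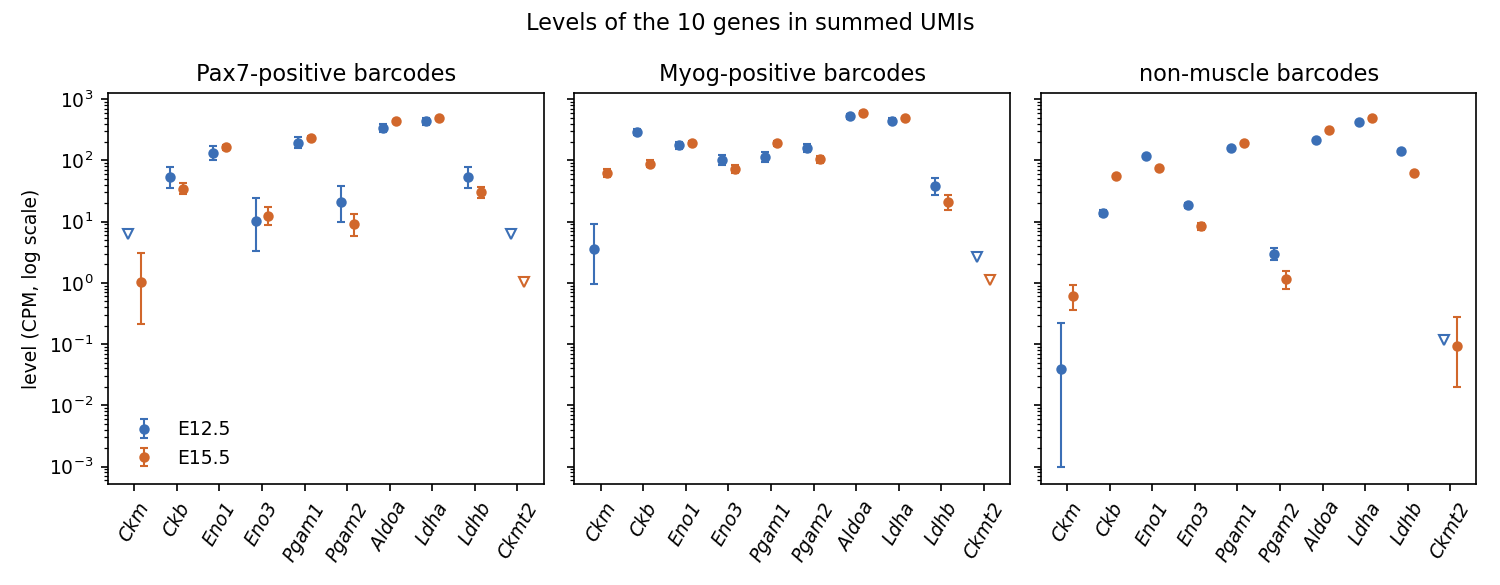
Level (CPM, log scale) of the 10 genes in Pax7-positive, Myog-positive and non-muscle barcodes at E12.5 (blue) and E15.5 (orange). Points are summed UMIs with exact 95% intervals for counting error, and open triangles mark the level of 3 counts where no UMI was found. Ckm in Myog-positive barcodes (3.52 and 63.0 CPM) is the gene with the largest distance between ages in that group, and Ckb lies lower at E15.5 there and higher in non-muscle barcodes.

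Outside muscle, Ckb ran the other way. In non-muscle barcodes it had 348 UMIs at E12.5 (13.7 CPM, 12.3 to 15.2) and 1761 at E15.5 (55.6 CPM, 53.1 to 58.3), a log2 ratio of 2.02. It was higher at E15.5 in connective tissue-like cells (10.5 and 34.5 CPM), chondrocyte-like cells (16.2 and 35.7 CPM) and Schwann-like cells (102 and 282 CPM). Endothelial-like cells had 28.9 CPM (17.1 to 45.7) and 46.4 CPM (37.6 to 56.6), intervals that overlapped. Muscle-lineage-like cells had the highest Ckb level of the 8 classes at E12.5 (169 CPM, 153 to 185), although the interval of immune-like cells with 8 UMIs (116 CPM, 49.9 to 228) overlapped with it. They ranked behind 6 other classes at E15.5 (60.8 CPM, 54.7 to 67.4). Their neighbours in that order, mast cell-like cells at 75.7 CPM (62.3 to 91.1) and endothelial-like cells at 46.4 CPM (37.6 to 56.6), had intervals that overlapped with theirs. The highest at E15.5 were immune-like cells at 291 CPM (259 to 326) and Schwann-like cells at 282 CPM (249 to 318), which did not differ beyond counting error.

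Among non-muscle barcodes 2 of 9 members were at least 2-fold higher at E15.5 and 3 lower, where 13.4% of 16622 genes were higher and 20.5% lower. The higher ones were Ckb and Ckm (1 and 19 UMIs), and the lower ones were Eno3 (18.4 to 8.40 CPM, log2 -1.13), Pgam2 (2.95 to 1.14 CPM, log2 -1.38) and Ldhb (142 to 62.0 CPM, log2 -1.20). With TMM scaling the ratios of Eno3 (-0.84) and Ldhb (-0.91) were under 2-fold, and that of Pgam2 was -1.09. Eno1 stood at 116 and 74.5 CPM (log2 -0.64).

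Eno3 was measured outside muscle in a pattern that Pgam2 did not share. Connective tissue-like cells held 351 Eno3 UMIs at E12.5 (17.8 CPM, 16.03 to 19.8) and 42 of Pgam2 (2.14 CPM, 1.54 to 2.89), while muscle-lineage-like cells of the same library held 139 of Eno3 and 229 of Pgam2. Chondrocyte-like cells had Eno3 at 26.0 CPM at E12.5 against 15.8 CPM at E15.5, and Pgam2 at 3.49 and 2.74 CPM. Endothelial-like cells, in contrast, had 0 Eno3 UMIs at E12.5, which allows up to 4.82 CPM, and 3 at E15.5 (1.45 CPM). The Eno3 share of the enolase pair was 14.96% and 13.6% in connective tissue-like cells, and 10.8% and 11.9% in chondrocyte-like cells. Schwann-like cells had 15.9% at E15.5 (13 of 82 UMIs, 8.72 to 25.6). The Eno3 level at E15.5 was 13.7 CPM in Schwann-like, 10.3 CPM in erythroid-like, 8.30 CPM in tenocyte-like and 8.20 CPM in connective tissue-like cells.

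Pgam2 and Ckm were closer to confined to muscle. At E15.5 the Pgam2 level was 52.1 CPM in muscle-lineage-like cells and at most 2.74 CPM in the other 10 classes, and 4 of them had no Pgam2 UMI. Ckm in the same library had 176 UMIs in muscle-lineage-like cells (29.5 CPM), 20 in connective tissue-like cells (0.95 CPM, 0.58 to 1.46) and 0 to 2 in each other class. At E12.5 the 5 UMIs of Ckm lay in muscle-lineage-like cells (4) and endothelial-like cells (1).

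**Figure D5:**
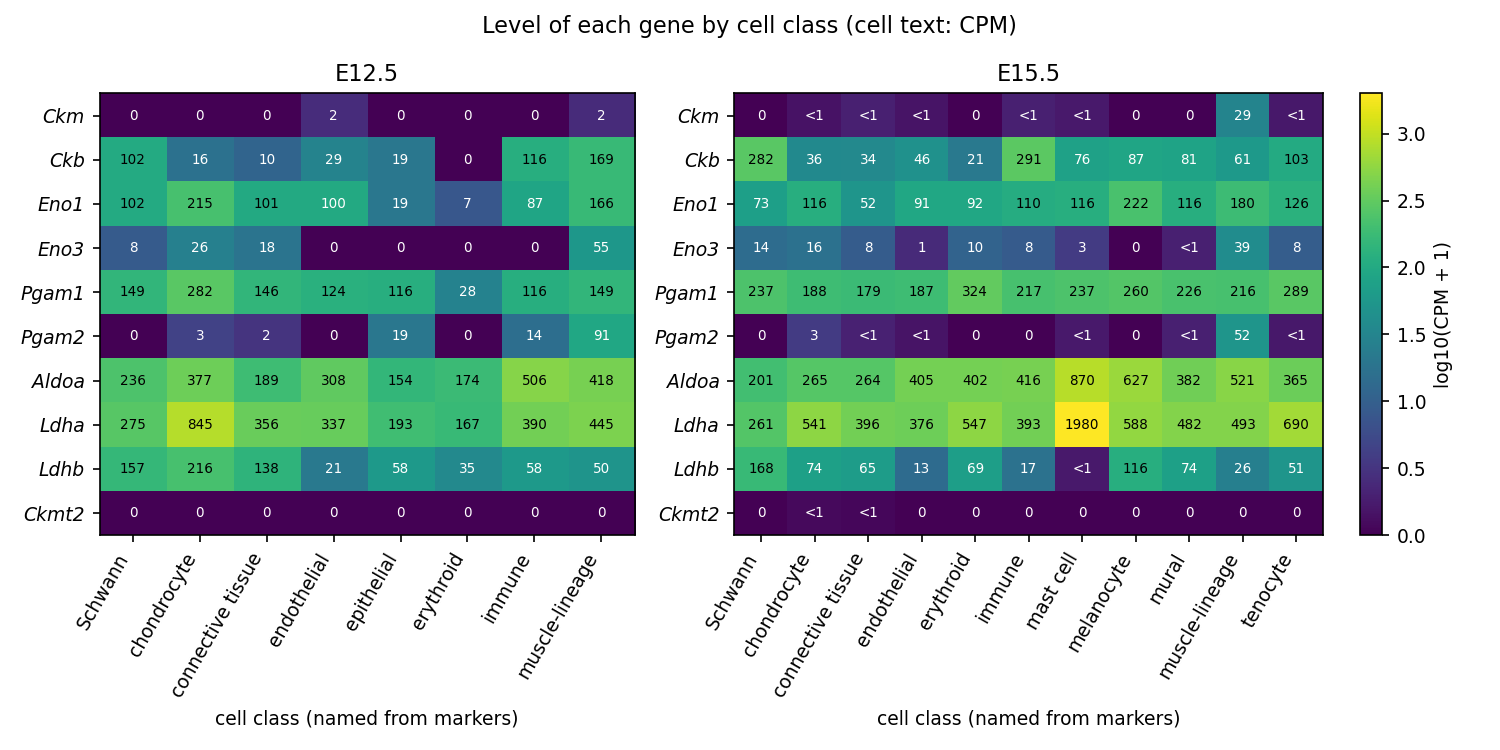
Level of each of the 10 genes (rows) in each cell class named from marker genes (columns), at E12.5 (left) and E15.5 (right). Colour is log10(CPM + 1) and the text in each cell is the CPM. Pgam2 is high in the muscle-lineage column alone at E15.5 (52 CPM), and Ldha is highest in the mast cell column (1980 CPM). Eno3 is also present in connective tissue and chondrocyte columns, and at E15.5 in Schwann, erythroid, tenocyte and immune columns.

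Aldoa and Ldha were the members with the highest levels. Aldoa was at 340 and 439 CPM in Pax7-positive barcodes and at 522 and 604 CPM in Myog-positive barcodes at the 2 ages, and at 579 and 763 CPM in the high sarcomere range. In the E15.5 library the highest level of both was in mast cell-like cells, with Ldha at 1980 CPM (1909 to 2053) and Aldoa at 870 CPM (823 to 919). The next class for Ldha was tenocyte-like cells at 690 CPM (649 to 732), and for Aldoa melanocyte-like cells at 627 CPM, where only 10 barcodes were counted (484 to 799). At E12.5 Ldha was highest in chondrocyte-like cells, at 845 CPM (813 to 878) against 445 CPM (419 to 472) in muscle-lineage-like cells.

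Ldhb, the subunit named for heart, was the minor subunit in all 3 groups. Its share of the Ldha and Ldhb UMIs at E12.5 was 10.97% in Pax7-positive barcodes (26 of 237, 7.29 to 15.7), 7.80% in Myog-positive barcodes (43 of 551, 5.71 to 10.4) and 25.2% in non-muscle barcodes. At E15.5 the shares were 5.79% (4.66 to 7.09), 4.04% (3.07 to 5.20) and 11.1%. The intervals of the Pax7-positive and Myog-positive barcodes overlapped at both ages. In the high sarcomere range it was 6.38% and 2.64%. Among non-muscle classes, endothelial-like cells had Ldhb shares of 5.83% (3.14 to 9.76) and 3.35% (2.22 to 4.84), against 10.1% and 5.002% in muscle-lineage-like cells. Schwann-like cells had 36.4% at E12.5 (20 of 55 UMIs, 23.8 to 50.4), an interval that held the 28.0% of connective tissue-like cells, and the highest share at E15.5, 39.2% (160 of 408, 34.4 to 44.1). Mast cell-like cells had the lowest at E15.5, with 1 UMI of Ldhb beside 2929 of Ldha.

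Ckmt2, the mitochondrial creatine kinase of muscle, was not detectable in muscle barcodes at this depth. Pax7-positive and Myog-positive barcodes of both libraries had 0 UMIs, and 3 counts would have been 2.64 CPM in Myog-positive barcodes at E12.5 against 1.09 CPM at E15.5. The 4 UMIs among kept barcodes of named classes at E15.5 lay in connective tissue-like cells (3) and chondrocyte-like cells (1), and 1 more was in a Myog-positive barcode removed as a doublet.

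Some members share sequence or position with other counted genes. Eno1b, a near-identical copy of Eno1, was counted on its own with 8 and 13 UMIs in Myog-positive barcodes, so the Eno1 counts are uncertain to the extent that reads fit both. Ckm lies on chromosome 7 (GRCm38, 19404776 to 19422841, plus strand) and overlaps A930016O22Rik on the other strand. Aldoa (chromosome 7, 126795234 to 126800751, minus strand) overlaps Fam57b, and Ckmt2 (chromosome 13, 91853387 to 91876885, minus strand) overlaps 1700119I11Rik, each on the other strand. The second Aldoa row had 8 and 4 UMIs over all barcodes, against 8046 and 15681 for the first.

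The genes closest in pattern to each muscle form were found by the Pearson correlation of log2(CPM + 10) over 20 groups (the named classes with at least 20 barcodes in each library plus the Pax7-positive and Myog-positive groups, which share barcodes with the muscle-lineage class). For Pgam2 they were Atp2a1, the calcium pump of fast muscle (r = 0.99), Klhl31 (0.98) and Chrna1, a subunit of the muscle acetylcholine receptor (0.98). For Eno3 they were Cnr1 (0.93), Rapgefl1 (0.92) and Srl, a calcium-binding protein of the sarcoplasmic reticulum (0.92). For Ckm they were 2310043L19Rik (0.995), Rsph10b (0.99) and Tex14 (0.98). Ckm was above 3.52 CPM only in the E15.5 Myog-positive group (63.0 CPM) and the E15.5 muscle-lineage-like class (29.5 CPM), which share barcodes. Its correlations rest on these groups, and any gene counted mainly there would score high. Ckmt2 was under the minimum of 50 UMIs.

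The other genes of energy supply, 47 in 5 lists, were read beside the members. In Myog-positive over Pax7-positive barcodes at E12.5, 10 of 29 genes with at least 20 UMIs were at least 2-fold higher and 0 lower, beside 10.7% and 8.91% of all genes. All 3 tested genes of the phosphagen and adenylate list were among them: Gamt, the last enzyme of creatine synthesis (14.5 to 130 CPM, log2 3.17), Gatm, the first (8.29 to 108 CPM, log2 3.71), and Ak1, the adenylate kinase of muscle cytosol (2.07 to 39.6 CPM, log2 4.26, 1.71 to 9.59). Pygm, the muscle glycogen phosphorylase, had 1 UMI in Pax7-positive and 43 in Myog-positive barcodes. Cox6a2 and Cox8b, muscle forms of cytochrome oxidase subunits, and myoglobin (Mb) had 0 UMIs in Pax7-positive barcodes and 74, 20 and 50 in Myog-positive ones, which makes them at least 10.5-fold, 2.83-fold and 7.08-fold higher against a limit of 3 counts. Mef2c, a transcription factor that acts with the Myod1 family, went from 26.9 to 1487 CPM (log2 5.79).

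At E15.5, 9 of 36 listed genes were at least 2-fold higher in Myog-positive barcodes and 5 lower, beside 7.77% and 7.34% of all genes. Cox6a2 had 1 and 240 UMIs, Cox8b 0 and 84 (at least 29.3-fold higher), Ak1 4 and 83 (log2 4.44) and Mef2c 61 and 986 (log2 4.08). The 10 Myog-positive barcodes richest in each gene held 192 of the 240 Cox6a2 UMIs and 710 of the 986 Mef2c UMIs. The lower genes were the creatine transporter Slc6a8 (log2 -2.21), Ppargc1a (-1.94), Slc2a3 (-1.84), Pygb (-1.62) and Slc16a1 (-1.27). The Slc2a3 difference rests on 1 Pax7-positive barcode, which held 20 of the 30 UMIs of that group, beside 8 UMIs in Myog-positive barcodes. Of the 10 other glycolytic enzymes with at least 20 UMIs, 0 were 2-fold higher or lower at either age. Gapdh, Pgk1 and Pkm had log2 ratios of 0.29, 0.01 and -0.13 at E15.5, and the interval of Gapdh (0.23 to 0.35) did not include 0.

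Between ages in Myog-positive barcodes, 5 of 33 listed genes were at least 2-fold higher at E15.5 and 7 lower, beside 6.09% and 17.9% of all genes. Higher ones were Esrra, a nuclear receptor that regulates mitochondrial genes (4.40 to 16.03 CPM, log2 1.86, 0.53 to 3.56), Slc16a1 (4.40 to 10.6 CPM, log2 1.26, -0.12 to 2.99), Tpi1 (125 to 297 CPM, log2 1.25) and Cox8a (602 to 1323 CPM, log2 1.14). Lower ones were myoglobin (50 and 3 UMIs, log2 -5.33, -7.66 to -3.70), Mef2c (1487 to 359 CPM, log2 -2.05), Gys1 (71.3 to 25.5 CPM, log2 -1.48) and Hk1 (37.9 to 14.2 CPM, log2 -1.41). Among Myog-positive barcodes, myoglobin, an oxygen-binding protein of muscle, and Ckm thus had most of their UMIs in opposite libraries. The 10 barcodes richest in myoglobin held 34 of its 50 UMIs at E12.5. The listed genes were not compared within ranges of sarcomere content, which differed between the ages. Gamt and Gatm had log2 ratios of 0.46 and 0.54 here, and of 1.44 and 1.64 in Pax7-positive barcodes, where 2 of 30 listed genes were at least 2-fold higher and 2 lower, among them Six4 (-1.88), beside 23.2% of all genes in either direction. In non-muscle barcodes 5 of 43 were higher, among them Gamt (2.15), Cox7a1 (1.95), Esrra (1.63) and Gatm (1.48), and 7 lower, among them Ldhd (-3.37), Aldoc (-2.69) and Six4 (-2.26). Of all genes 13.4% were higher and 20.5% lower there.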

How the data were processed

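Per the file headers and the submitters' processing notes, the authors aligned reads and deposited filtered matrices of raw UMI counts with Cell Ranger 4.0.0 on mm10 (GRCm38). Seurat 4.3.0 is also named in those notes. The annotation release and the settings for empty droplets are not given in the sources used here. Per the labels, cells were freed mechanically and with trypsin and captured with a 10x 3' kit. The libraries held 12941 barcodes and 34907675 UMIs at E12.5, and 5780 barcodes and 46966083 UMIs at E15.5.

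Barcodes were kept with at least 500 genes and under 10% mitochondrial UMIs (604 and 166 fell out at E12.5, 1376 and 644 at E15.5). Doublets were scored against 2 simulated doublets per barcode, as Scrublet does, and 1270 (10.3%) and 190 (4.63%) were removed, the share expected at 0.8% per 1000 barcodes. This left 11001 and 3916 barcodes. Clusters (2000 variable genes, 30 principal components, Leiden resolution 1) were called "X-like" from marker lists, and no annotation of the authors was used. Counts were summed per group and scaled to CPM. Shares have exact Clopper-Pearson intervals, levels exact Poisson intervals and log2 ratios exact conditional intervals (95%). UMIs correct for PCR copies, but intervals and limits of 3 counts cover counting error only. Genes past 2-fold were counted among those with at least 20 UMIs over both groups. The same rule was run on simulated counts that held counting error alone. Those counts had no clumping of UMIs in single barcodes and no library effect, so they cannot show how either acts on the counts of genes.

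The members and lists were chosen with earlier results of these data known. All 10 members are named, and of the 47 listed genes up to 4 with the highest and 4 with the lowest ratio among those past 2-fold; Gamt, Cox6a2, Cox8b and Mb at E12.5, Slc16a1 at E15.5, Gapdh, Pgk1 and Pkm, and Gamt and Gatm between ages in Myog-positive barcodes were named after their values were seen. A listed gene that the rule names is not reported here. Alternatives covered doublets, gates of 1 and 3 UMIs, muscle clusters only, at least 1000 genes, all deposited barcodes, equal weights, thinning to 2000 UMIs, TMM (edgeR 4.0.16) and median-of-ratios scaling, and no count minimum. Python 3.11.15, numpy 2.4.6, scipy 1.17.1, leidenalg 0.10.2 and R 4.3.3 were used.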

Additional observations from a re-analysis of the deposited data

Results flagged for a closer look

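Ckb had opposite differences between ages in and outside muscle. Its log2 ratio of E15.5 over E12.5 was -1.72 (interval -1.97 to -1.48) in Myog-positive barcodes and 2.02 (1.85 to 2.19) in non-muscle barcodes. With 1 library per age this difference was not tested. Under the 12 alternatives the ratio stayed between -1.90 and -1.04 in the first group and between 1.86 and 2.32 in the second.

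The Myog-positive barcodes of the E15.5 library that were removed as doublets had Ckm at 446 CPM, above the 63.0 CPM of the kept ones. Among barcodes with at least 5% sarcomere UMIs, 8 were removed and 10 kept. The 8 had 158 Ckm UMIs, a Ckm share of 85.4% and a median mitochondrial share of 0.79%, and the 10 had 153 UMIs, 78.9% and 2.42%. Connective tissue markers stood at 1929 CPM in the 8 and 554 CPM in the 10, and the medians were 16142 and 9665.5 UMIs. Whether these 8 hold 1 cell or more was not tested.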

How the results depend on the processing

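No paired analysis was possible because each age had 1 library. In Myog-positive barcodes the shares at E15.5 that moved past their counting interval were as follows. With no doublets removed they were 54.2% for Ckm, 35.1% for Eno3 and 39.2% for Pgam2, and with all deposited barcodes 53.1%, 34.7% and 39.6%. With a gate of 1 UMI they were 35.7% for Ckm and 25.4% for Pgam2 (49.0% at E12.5), and with barcodes of equal weight 31.4% for Pgam2. Thinning to 2000 UMIs before the gate left 99 Myog-positive and 19 Pax7-positive barcodes at E15.5. The Myog-positive shares at E15.5 were then 31.3% for Ckm, 37.1% for Eno3 and 49.1% for Pgam2. The Pgam2 log2 ratio between ages in Pax7-positive barcodes turned to 0.24. Over all groups, thinning moved 18 of 41 shares and ratios past their intervals and reversed 1. Without the barcode of most Ckm UMIs, an alternative chosen after seeing the data, the Ckm share was 28.3%, and with no doublets removed as well it was 47.9%, with Eno3 at 34.1%. The Ckm share in Pax7-positive barcodes at E15.5 had no value after thinning, since no UMI of the pair was left. None of the 44 shares and ratios moved past its interval with muscle clusters only or with at least 1000 genes. With no minimum beyond 1 UMI, the genes at least 2-fold lower at E15.5 numbered 2751 in Pax7-positive (1416 with the minimum) and 2738 in Myog-positive barcodes (1734), and those higher in Myog-positive barcodes 971 (589). In Myog-positive over Pax7-positive barcodes they numbered 1373 higher (845) and 1364 lower (705) at E12.5, and 1518 higher (793) and 1315 lower (749) at E15.5. The causes of these shifts were not tested. TMM and median-of-ratios scaling each moved 15 of 26 ratios between ages past their intervals and reversed 0. With TMM scaling Pgam2 in Pax7-positive barcodes (-0.92) and Eno3 (-0.84) and Ldhb (-0.91) in non-muscle barcodes fell under 2-fold, and Pgam1 in Myog-positive barcodes (1.03) passed it. At these depths 3 counts would have been 6.21 CPM in Pax7-positive barcodes at E12.5.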
